A study of Mus musculus with 40 samples.

Results

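Liver DNA methylation was compared between male offspring of high-fat dams that ate a high-fat (HF) diet after weaning, called HH, and male offspring of high-fat dams that ate a low-fat (LF) diet after weaning, called HL. Every CpG with a value in a majority of the animals of both groups entered the comparison, which kept 282 of the 300 CpGs in the read table and 21 of 23 loci. The comparison used 10 HH and 9 HL animals, 19 of the 39 animals with values (HL replicate 1 was not analysed here). All animals were C57BL/6J, an inbred strain, and all were males whose livers were taken at 9 weeks of age. HH and HL animals shared exposure to the HF diet of the dam through gestation and suckling, and differed in the diet eaten from weaning. According to the study's methods, the males of a cage were divided between both diets at weaning. The 10 LH and 10 LL animals, offspring of LF dams on the HF and the LF diet after weaning, serve below as the same contrast without HF exposure by the dam. Whole liver was sampled, so a change of methylation within cells and a change in the mixture of cell types cannot be told apart, and the labelled tissue could not be checked against markers because only methylation at these loci was measured.

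Methylation of a cytosine that precedes a guanine (a CpG) is a chemical mark that cells copy when they divide. CpG-dense starts of genes are mostly unmethylated whether or not the gene is in use, and CpGs away from gene starts are mostly methylated. At the control regions of imprinted genes the copy inherited from a single parent is methylated, which gives intermediate levels in every tissue. Bisulfite converts unmethylated but not methylated cytosines, so the percentage of reads that keep the cytosine gives the methylation level in percent, and differences between groups are given below in percentage points. The loci cover genes of the leptin axis, insulin signalling and gluconeogenesis, imprinting, sterol synthesis, nuclear receptors and inflammation.

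The CpGs that carried the smallest p-value or the largest difference in the loci described below are shown in their sequence context, read from the mouse build NCBIM37 on the strand of the gene. The capitals mark the measured CpG, and each CpG carries its number within its locus, counted from 1 along the chromosome. The sequence shows how much the neighbourhood of each site differs, from the run of alternating C and G in the 5′ UTR of Irs1 to the single CpG in the window upstream of Pck1.
Irs1_b_10, chromosome 1, position 82287453, 5′ UTR: agggaaggcgcgCGcgcctagagag
Plagl1_11, chromosome 10, position 12810505, exon of a non-coding transcript: ggctgccccgccCGcagcctcgtcc
Pck1_1, chromosome 2, position 172978445, upstream: tcagttccaaacCGtgctgaccatg
Pck1_5, chromosome 2, position 172978561, 5′ UTR: aagcaaggagggCGggctaccaagc
Peg3_5, chromosome 7, position 6683001: gccgaccctggtCGgggtgtgtgcg
Ebp_3, chromosome X, position 7769938, 5′ UTR of some transcripts and intron of others: tcgccctgcgatCGcgccgcctggg
The primers of 3 of the 4 loci with an unadjusted p under 0.05 follow, since a molecule is read only if it carries both sites. They match bisulfite-converted DNA.
Irs1_b forward: gtagtgggtttagggtgagtgtagt
Irs1_b reverse: cccctacccaaaaatatttaatttac
Plagl1 forward: ggtatttaggagattttggttttg
Plagl1 reverse: atcccaacccaaactaaataacaa
Pck1 forward: aagtttaattattatttttttggagtttat
Pck1 reverse: aaaaaccaactatacttaataaccc

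Median depth per CpG ran from 4407 to 13976 reads among the HH libraries and from 4010 to 17282 reads among the HL libraries. Depth differed by less than the spread between animals, with a ratio of HH to HL of 0.907 (two-sided exact permutation p 0.621). The variance over animals divided by that of binomial sampling of the reads ran from 1.31 at Pparg to 1553 at Ebp with the counts as deposited. With counts halved at the CpGs where they were even in every HH and HL animal it ran from 0.918 at Pparg, where the animals varied no more than counting gives, to 1482 at Ebp. No libraries were duplicates, the most alike being apart by 0.902 points at the average CpG.

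After adjustment 2 loci were higher in HH than in HL: the start of Lepr, the leptin receptor gene, by 1.75 points from a level of 5.84%, and the 5′ UTR of Irs1, an adaptor of the insulin receptor, by 0.353 points from a level of 0.788%. These 2 loci were 9.52% of the 21 tested (difference in means, two-sided exact permutation test, Benjamini-Hochberg adjustment over the 21 loci, threshold 0.05). In HL the level of this Irs1 locus was no higher than the 0.855% of 10 other loci under 2%. In HH it was 1.14%, above the 0.872% of the same 10 loci. Incomplete conversion of cytosines was not tested. Without adjustment 4 loci had a p under 0.05, 19.0% of those tested, and all 4 were higher in HH, adding the imprinted gene Plagl1 and the gluconeogenesis gene Pck1. At any p, 16 loci (76.2%) were higher in HH. The median difference over the 21 loci was 0.125 points.

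**Figure D1:**
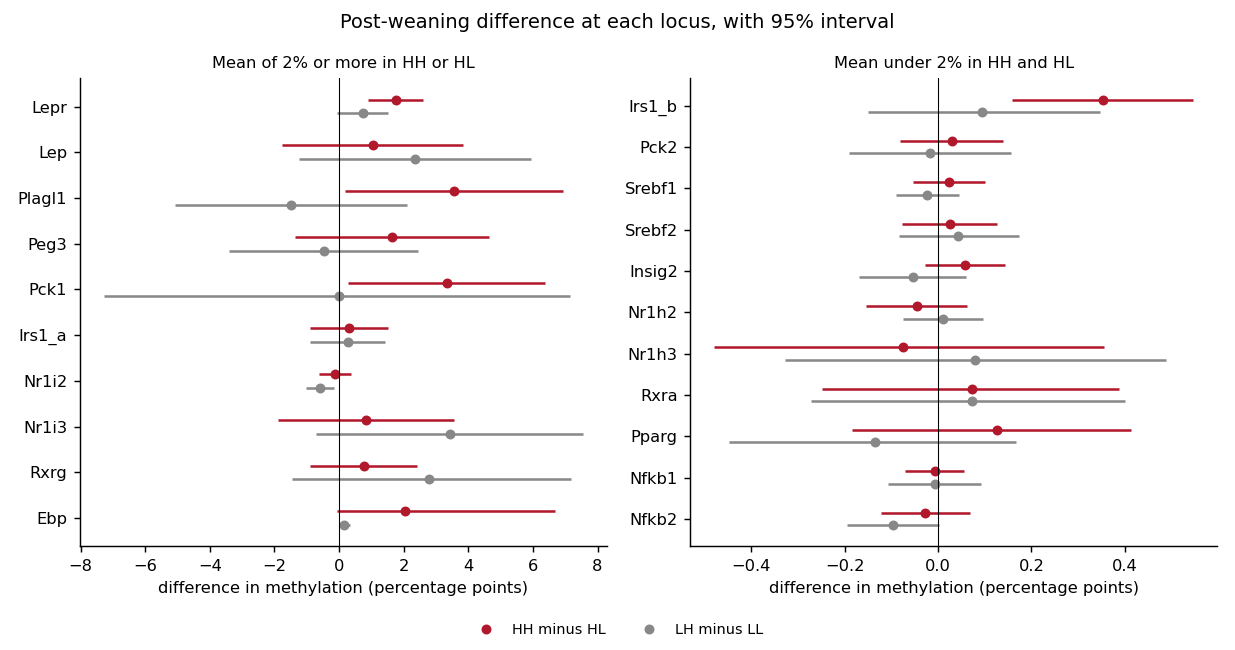
Difference in mean methylation (percentage points) between animals on the HF and the LF diet after weaning, for each locus, in offspring of HF dams (HH minus HL, red) and of LF dams (LH minus LL, grey). Points are differences of group means and bars are 95% intervals from inverting the exact permutation test, with the 10 loci of at least 2% on the left and the 11 lower loci on the right on a narrower axis; among the lower loci the HH minus HL interval of Irs1_b (0.159 to 0.547 points) lies clear of zero.

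No single CpG passed the adjusted threshold by the exact test. At 36 CpGs (12.8% of 282) the unadjusted p was under 0.05, of which 32 (11.3%) were higher in HH and 4 (1.42%) lower. The 4 lower ones were Srebf2_13, Nr1h3_4, Nr1h2_3 and Nr1h2_12, named after their values were seen. After adjustment over the 282 CpGs the count was 0, the smallest adjusted p being 0.126. The exact rank-sum test passed 0 CpGs, with 29 at an unadjusted p under 0.05, and the quasi-binomial model passed 0, with 23. limma on the log2 ratio of methylated to unmethylated reads passed 3, all in Lepr (Lepr_1, Lepr_4 and Lepr_7, each with an adjusted p of 0.0369). Of all 282 CpGs, 192 (68.1%) had a higher mean in HH. Neighbouring CpGs share reads and animals, so these counts are not counts of independent events.

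The leptin axis was represented by Lepr and by Lep, the gene of the hormone itself, which fat cells release in proportion to fat stores and which reduces feeding through the receptor in the brain. The liver also makes leptin receptor, including a form without the signalling tail. Both loci had a higher mean in HH, against 76.2% of all loci, as did 27 of their 30 CpGs, against 68.1% of all CpGs. Lepr passed the adjusted threshold, and Lep gave 67.5% in HH and 66.4% in HL, a difference of 1.04 points with an interval from -1.77 to 3.85.

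The Lepr locus (chromosome 4, ENSMUSG00000057722.10) held 19 CpGs, 9 upstream of the gene and 10 in its 5′ UTR. HH animals ranged from 5.85 to 9.01% with a median of 7.61%, and HL animals from 4.56 to 6.66% with a median of 5.89%. Of the 10 HH animals, 8 lay above the highest HL animal and 9 above the HL median, while 4 of the 9 HL animals lay below the lowest HH animal. The means were 7.59% ± 0.993 (SD, n = 10) and 5.84% ± 0.746 (SD, n = 9). The difference of 1.75 points had a 95% interval from 0.890 to 2.61 (exact permutation p 0.000693, adjusted p 0.0145). Leaving out each animal in turn kept the difference between 1.59 and 1.95 points and the adjusted p at or under 0.0307. Within runs of animal numbers, described below, the difference was 0.920 points and the call ended (adjusted p 0.804, exact permutation test within runs).

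Within Lepr the difference in points lay mostly in the upstream CpGs, where the level was also higher. This split was noticed after the values were seen and is given without a test. Over the 9 upstream CpGs the HH animals ranged from 10.6 to 16.0% (median 13.8%) and the HL animals from 7.95 to 12.03% (median 10.3%). All 10 HH animals were above the HL median there, and the means differed by 3.25 points. Single upstream CpGs differed by 1.57 to 6.65 points, and 8 of the 9 had an unadjusted p under 0.05. Over the 10 CpGs of the 5′ UTR the means were 2.24% ± 0.359 in HH and 1.84% ± 0.368 in HL (SD, n = 10 and 9), with differences from -0.0176 to 0.767 points and 2 of the 10 at an unadjusted p under 0.05.

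Lepr_1, an upstream CpG, had the largest difference of all 282 CpGs. HH animals ranged from 22.9 to 34.3% (median 31.3%) and HL animals from 19.3 to 26.3% (median 23.3%). The means of 29.8% ± 4.24 (SD, n = 10) and 23.2% ± 2.50 (SD, n = 9) differed by 6.65 points (95% interval 3.19 to 10.1, exact permutation p 0.00134, adjusted p 0.126). Lepr_4 had the smallest p of any CpG, 0.000758 by the same exact test, at 12.8% ± 1.43 against 9.68% ± 1.57 (SD, n = 10 and 9), a difference of 3.08 points with an adjusted p of 0.126. Over all 171 pairs of CpGs of this locus the median correlation between animals was 0.24 (-0.415 to 0.737). Group means were removed first (19 animals, CpGs read from the same amplicon). These pairs mixed the upstream CpGs with those of the 5′ UTR, whose HL means were 1.10 to 2.79%. Upstream pairs were not taken alone.

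**Figure D2:**
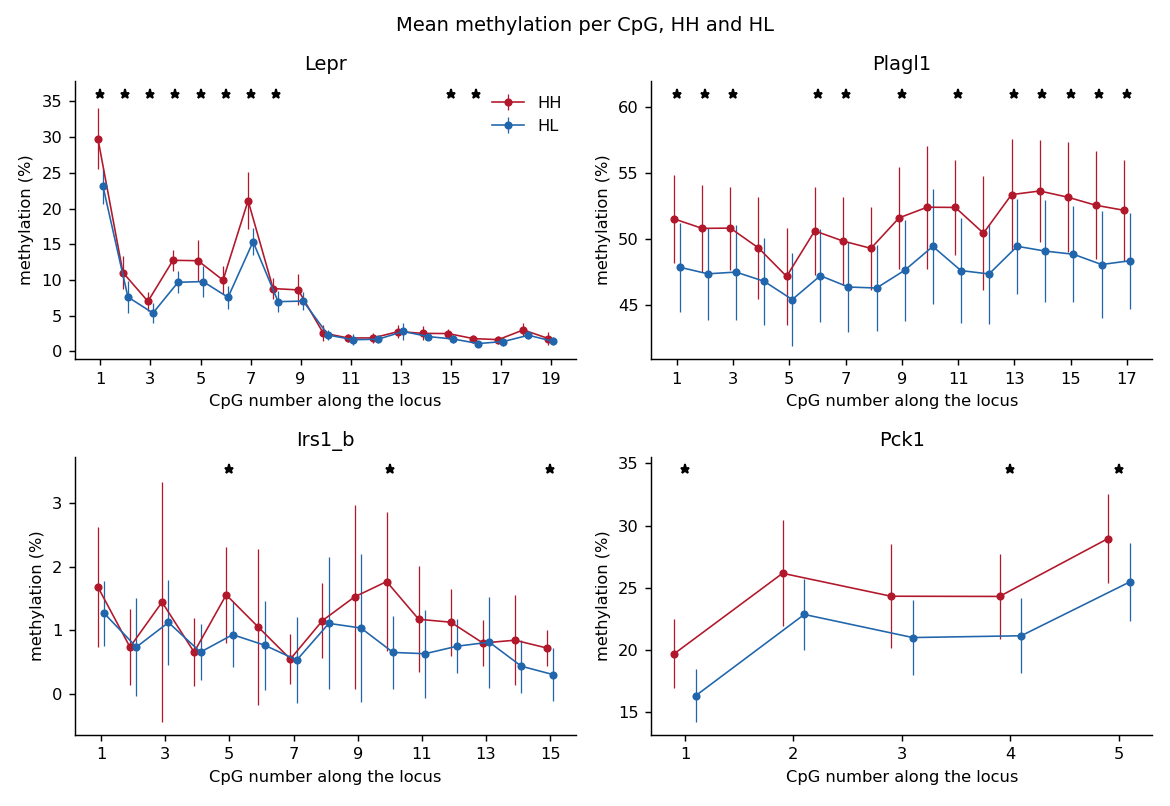
Methylation (percent) at each CpG of Lepr, Plagl1, Irs1_b and Pck1 against the number of the CpG along the locus, for HH and HL animals. Points are group means, bars are SD over animals, and stars mark CpGs with an unadjusted exact p under 0.05. In Lepr the separation in points lies mostly at CpGs 1 to 9, the upstream ones (8 starred, against 2 of 10 in the 5′ UTR). In Plagl1 and Pck1 it runs along the whole locus.

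Genes of insulin signalling and gluconeogenesis gave 4 loci, all with a higher mean in HH and 1 past the adjusted threshold. Over all loci these shares were 76.2% and 9.52%. Of their 40 CpGs 27 were higher in HH, a share near the 68.1% of all CpGs. Irs1 passes the signal of the insulin receptor on to the kinases that lower glucose output. It was read at Irs1_a in its coding exon and at Irs1_b in its 5′ UTR. Pck1 and Pck2 encode the cytosolic and mitochondrial forms of phosphoenolpyruvate carboxykinase, the enzyme that commits carbon to glucose synthesis in the fasted liver.

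Irs1_b (ENSMUSG00000055980.2, chromosome 1, 82287315 to 82287497, 15 CpGs) was almost unmethylated in every animal. HH animals ranged from 0.867 to 1.52% with a median of 1.14%, and HL animals from 0.546 to 1.13% with a median of 0.804%. All 10 HH animals were above the HL median, 5 of them above the highest HL animal, and 6 of 9 HL animals were below the lowest HH animal. The means of 1.14% ± 0.216 (SD, n = 10) and 0.788% ± 0.180 (SD, n = 9) differed by 0.353 points (95% interval 0.159 to 0.547, exact permutation p 0.00141, adjusted p 0.0148).

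The reads behind Irs1_b were few. Its median depth was 337.5 reads per CpG in HH and 304 in HL, from 114 to 1333 among animals, and the methylated reads pooled over the locus numbered from 4 to 178 per animal, counts being halved at the CpGs where they were even in every HH and HL animal. HH replicate 7, the highest animal, had 6 methylated of 396 reads, 1.52% with a 95% Wilson interval from 0.696 to 3.27%, over the 6 of 15 CpGs with a value in that animal. HL replicate 10, the lowest, had 14 of 2565, 0.546% with an interval from 0.325 to 0.914%. Such intervals cover counting error only, and incomplete conversion, which would also keep cytosines, was not tested. With halved counts the animals varied 1.29 times as much as binomial sampling, in variance.

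The call at Irs1_b held in each of the 19 sets that leave out 1 animal (adjusted p 0.00576 to 0.0312) and ended under 8 of the 16 other settings that gave a value. With only CpGs read in every HH and HL animal the difference was 0.215 points (adjusted p 0.708). With only the animals of at least 500 reads at the locus it was 0.163 points (adjusted p 0.666). These were HH animals at 1333, 590, 948 and 794 reads and HL animals at 506 and 516 reads. They were too few for the exact test to reach a p under 0.05, so the call could not hold in that setting. The mean of the 10 other loci under 2%, Ebp left out, was 0.872% in HH and 0.855% in HL, a difference of 0.0168 points (exact permutation p 0.641, n = 10 and 9). Within Irs1_b 12 of 15 CpGs had a higher mean in HH, and 3 had an unadjusted p under 0.05. The largest was Irs1_b_10, printed above, at 1.77% ± 1.09 (SD, n = 9) against 0.654% ± 0.569 (SD, n = 8), 1.11 points apart (adjusted p 0.297, exact permutation p 0.0103).

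Irs1_a, in the coding exon of the same gene, was almost fully methylated. HH averaged 94.5% and HL 94.2%, and 0.310 points apart gave an adjusted p of 0.699 by the exact test.

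The start of Pck1 (ENSMUSG00000027513.5, chromosome 2, 172978445 to 172978561) held 5 CpGs, 4 upstream and 1 in the 5′ UTR. HH animals ranged from 20.1 to 29.3% with a median of 24.4%, and HL animals from 17.6 to 27.2% with a median of 21.1%. The groups overlapped over most of their range, with 8 of 10 HH animals above the HL median and 3 above the highest HL animal. Means of 24.7% ± 3.47 (SD, n = 10) and 21.4% ± 2.70 (SD, n = 9) differed by 3.33 points (95% interval 0.280 to 6.36, exact permutation p 0.0347, adjusted p 0.210). The highest HL animal, replicate 4, stood at 27.2% against 22.1% for the next, and without it the adjusted p was 0.0480.

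All 5 CpGs of Pck1 had a higher mean in HH, by 3.16 to 3.49 points, and 3 had an unadjusted p under 0.05. Pck1_1 had the smallest p, at 19.7% ± 2.78 against 16.3% ± 2.13 (SD, n = 10 and 9, exact permutation p 0.00955, adjusted p 0.297), and Pck1_5 the largest difference, 3.49 points. The CpGs moved together between animals, with a median correlation of 0.89 over 10 pairs. Pck2 was under 1% in both groups, 0.744% in HH and 0.715% in HL.

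The imprinted genes with enough values were Plagl1, a zinc-finger transcription factor that belongs to a network of imprinted genes, and Peg3, another zinc-finger gene active from the paternal copy. Both stood near the level that methylation of a single parental copy gives. Both loci had a higher mean in HH, against 76.2% of all loci, as did all 28 of their CpGs, against 68.1% of all CpGs. Of these CpGs 12 had an unadjusted p under 0.05, against 12.8% of all CpGs. Neither locus passed the adjusted threshold. The locus of Igf2, the imprinted fetal growth factor, had values in too few animals and is given among the flagged results.

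Plagl1 (ENSMUSG00000019817.11, chromosome 10, 12810372 to 12810570) held 17 CpGs, 9 upstream and 8 in an exon of a non-coding transcript. HH animals ranged from 45.3 to 54.9% with a median of 52.8%, and HL animals from 41.4 to 54.3% with a median of 48.0%. Of the HH animals 8 of 10 were above the HL median, 2 above the highest HL animal, and the ranges overlapped over most of their extent. The means of 51.2% ± 3.41 (SD, n = 10) and 47.7% ± 3.53 (SD, n = 9) differed by 3.57 points, the largest difference of any locus (95% interval 0.187 to 6.92, exact permutation p 0.0400, adjusted p 0.210).

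All 17 CpGs of Plagl1 had a higher mean in HH, by 1.76 to 4.80 points, and all 12 CpGs named above among the imprinted genes lay here. Plagl1_11 was the leading site, at 52.4% ± 3.59 against 47.6% ± 3.999 (SD, n = 10 and 9, exact permutation p 0.0143, adjusted p 0.348). The CpGs are read on shared molecules and moved together, with a median correlation of 0.89 over 136 pairs. The upstream CpGs differed by 3.18 points and those in the exon by 4.01.

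Peg3 (ENSMUSG00000002265.8, chromosome 7, 6682916 to 6683052, 11 CpGs, 9 in the 5′ UTR and 2 in an intron) gave 41.9 to 51.3% in HH with a median of 47.6%, and 39.2 to 49.4% in HL with a median of 47.2%. The medians were close and 6 of 10 HH animals were above that of HL. The means of 47.1% ± 2.58 (SD, n = 10) and 45.4% ± 3.57 (SD, n = 9) differed by 1.63 points (95% interval -1.36 to 4.64, exact permutation p 0.268, adjusted p 0.699). The 11 CpGs differed by 1.34 to 1.93 points and were nearly copies of each other (median correlation 0.97 over 55 pairs).

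**Figure D3:**
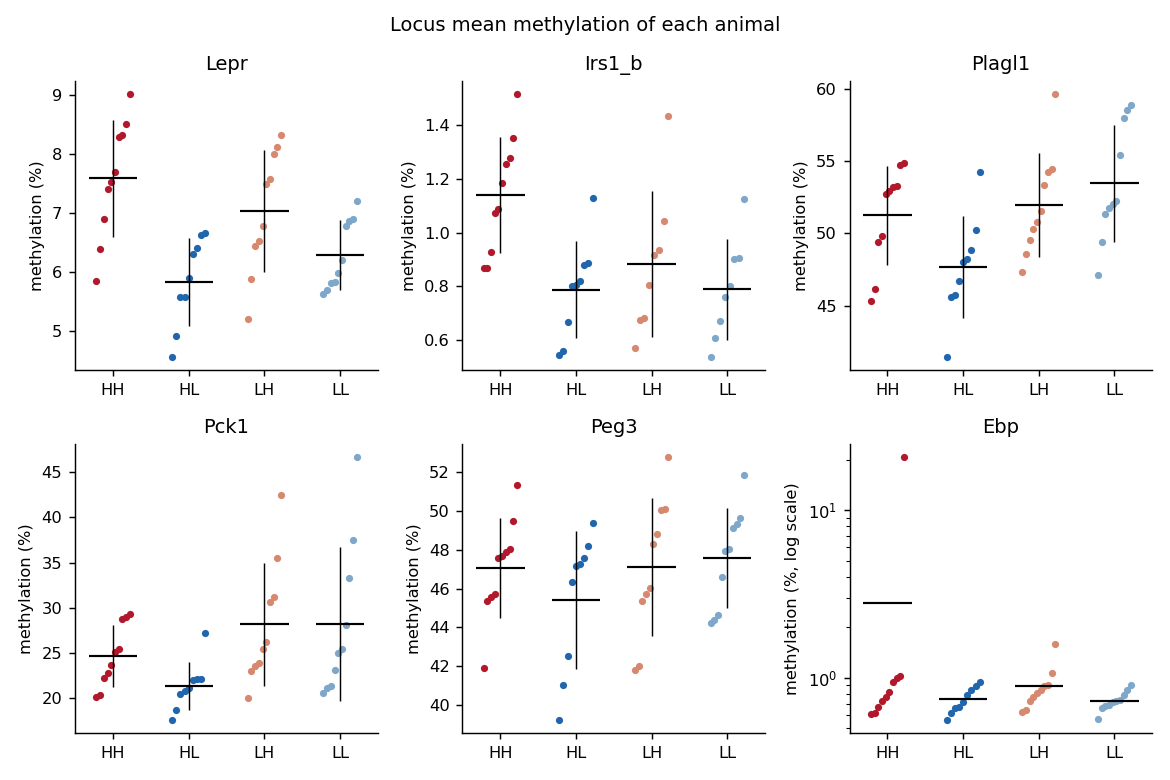
Methylation (percent) of each animal at Lepr, Irs1_b, Plagl1, Pck1, Peg3 and Ebp in the HH, HL, LH and LL groups, each point an animal and each panel with its own axis. Horizontal lines are means and vertical bars SD, except at Ebp, which has a log axis and no SD bar; at Lepr 8 of 10 HH points lie above every HL point, and at Ebp a single HH point stands at 20.8%.

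The sterol genes were Srebf1 and Srebf2, the transcription factors that switch on fatty acid and cholesterol synthesis, Insig2, which holds them back when sterols are plentiful, and Ebp, an isomerase late in cholesterol synthesis. All 4 loci had a higher mean in HH, as did 76.2% of all loci, and 0 passed either threshold. An unadjusted p under 0.05 was found at 2 of their 71 CpGs, a smaller share than the 12.8% of all CpGs. Of the 4 loci, 3 were under 1% in both groups, with differences of 0.0580 points at Insig2, 0.0233 at Srebf1 and 0.0261 at Srebf2.

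Ebp (ENSMUSG00000031168.8, chromosome X, 7769933 to 7770047, 11 CpGs) had the third largest difference of the loci through a single animal. HH animals ranged from 0.607 to 20.8% with a median of 0.794%, and HL animals from 0.560 to 0.945% with a median of 0.712%. HH replicate 1 was at 20.8%, the next HH animal at 1.03%, and the animals of both groups otherwise overlapped. The difference of 2.05 points (95% interval -0.0714 to 6.69, exact permutation p 0.240, n = 10 and 9) was 0.0523 points without that animal. All 11 CpGs carried the raised level in the same animal, the CpGs correlating at a median of 0.99, and depth at the locus was 62175 reads in HH and 70598 in HL. Ebp_3 differed by 3.12 points, with an HH median of 1.495% (exact permutation p 0.00751, adjusted p 0.297), and by 0.563 points without HH replicate 1, which was at 26.9% there.

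Nuclear receptors formed the largest group, with 7 loci: Nr1h2 and Nr1h3, the oxysterol receptors, Nr1i2 and Nr1i3, which sense foreign compounds, Rxra and Rxrg, their common partners, and Pparg, the regulator of fat storage. Of these 4 had a higher mean in HH, against 76.2% of all loci, 3 a lower one, and 0 passed either threshold. Of their 76 CpGs, 5 had an unadjusted p under 0.05, a smaller share than the 12.8% of all CpGs. They were higher in HH at Rxra_7 (2.35 against 0.971%) and Pparg_8 (1.28 against 0.315%) and lower at Nr1h3_4 (1.27 against 2.30%) and at Nr1h2_3 and Nr1h2_12. The levels spanned the full range, from Nr1i2 at 94.2% in HH and 94.3% in HL, through Nr1i3 at 32.1 and 31.2% and Rxrg at 12.05 and 11.3%, to Nr1h3 at 1.57 and 1.64%. Pparg had a median depth of 1666.5 reads in HH and 273 in HL (exact permutation p for depth 0.0455), and Nr1h3 422 and 602 (p 0.0324), and the part of depth in their values was not tested.

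The inflammation genes Nfkb1 and Nfkb2, subunits of the NF-kappaB transcription factor, had means under 1% in both groups, and HH minus HL was -0.00757 points at Nfkb1 and -0.0273 at Nfkb2. Their adjusted p-values by the exact test were 0.803 and 0.699, and 17 of their 37 CpGs had a higher mean in HH, a smaller share than the 68.1% of all CpGs.

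The precision differed with the level. At the 12 loci under 2% in HL the 95% interval reached a median of 0.109 points to either side, and at the other 9 loci a median of 2.73 points. Of those 9, 8 had a higher mean in HH with a median difference of 1.04 points, and of the 12 low loci 8 did, with a median of 0.0276 points. Of all 21 loci 76.2% had a higher mean in HH.

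In the offspring of LF dams the same change of diet after weaning gave 0 loci past the adjusted threshold. These 20 animals are not shared with the HH and HL groups. One locus, Nr1i2, had an unadjusted p under 0.05 (4.76% of loci), lower by 0.590 points on the HF diet (exact permutation p 0.0109, adjusted p 0.229), and 11 of 21 loci (52.4%) had a higher mean in LH. Of the CpGs 22 (7.80%) had an unadjusted p under 0.05, 13 higher (4.61%) and 9 lower (3.19%), and 140 (49.6%) had a higher mean.

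At Lepr the LH animals ranged from 5.20 to 8.33% with a median of 7.14%, and the LL animals from 5.64 to 7.21% with a median of 6.10%. The difference of 0.742 points was in the same direction as in offspring of HF dams, with an exact permutation p of 0.0649. Of the 10 LH animals 8 were above the LL median and 5 above the highest LL animal, and 0 LL animals were below the lowest LH animal. Of the 19 CpGs 17 had a higher mean in LH, 4 of them at an unadjusted p under 0.05. At Irs1_b the means were 0.883% in LH and 0.789% in LL (n = 8 and 8, exact permutation p 0.451). Plagl1 averaged 52.0% in LH and 53.5% in LL (exact permutation p 0.388), and Pck1 was at 28.2% in both groups.

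The difference between both diet contrasts, (HH minus HL) minus (LH minus LL), was tested by limma on the percentages of all 4 groups. After adjustment 0 of 21 loci and 0 of 282 CpGs passed. Unadjusted, 1 locus (4.76%) and 19 CpGs (6.74%) had a p under 0.05, of which 11 CpGs were in Plagl1. limma on the log2 ratio of reads also passed 0 loci and 0 CpGs, with 1 and 17 at an unadjusted p under 0.05. The locus was Plagl1, where the contrasts differed by 5.07 points (SE 2.34, limma p 0.0370, adjusted p 0.587). At Lepr they differed by 1.01 points (SE 0.544, limma p 0.0716, adjusted p 0.587) and at Irs1_b by 0.259 points (SE 0.145, limma p 0.0839, adjusted p 0.587), so a post-weaning response particular to offspring of HF dams was not shown at either.

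The animals carry numbers in the labels that fall into runs, and whether a run is a cage or litter is not stated. Runs were formed where successive numbers differed by at most 3. HH and HL animals both occur in 3 of the runs (52 to 55, 122 to 128 and 172 to 177, 12 animals), whereas 2 runs hold only HL animals (108 to 109 and 227 to 228) and 1 only HH animals (181 to 183). Within the shared runs the Lepr difference was -0.815 points (1 HH, 1 HL animal), 0.734 (3 HH, 3 HL) and 2.45 (3 HH, 1 HL). Over runs the difference was 0.920 points, with an exact permutation p of 0.125 (smallest possible 0.0125). This was smaller than the 1.75 points over all animals. In the runs that hold a single group, the HH animals of 181 to 183 averaged 8.07%, and the HL animals 5.61% in 108 to 109 and 5.07% in 227 to 228.

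The other 3 loci also gave smaller values within the same runs, the first of which held 1 HH and 1 HL animal. Irs1_b differed by 0.0625, 0.283 and 0.330 points, or 0.256 over runs, with an exact permutation p of 0.0375 that did not pass adjustment (0.787). Plagl1 gave -2.74, 5.42 and 2.93 points (3.26 over runs, exact permutation p 0.25), and Pck1 -0.707, 4.26 and 2.68 points (2.93 over runs, exact permutation p 0.138). With 12 animals in 3 runs an adjusted p under 0.05 was within reach only if several loci had the smallest possible p, and run and diet cannot be told apart in the other animals.

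**Figure D4:**
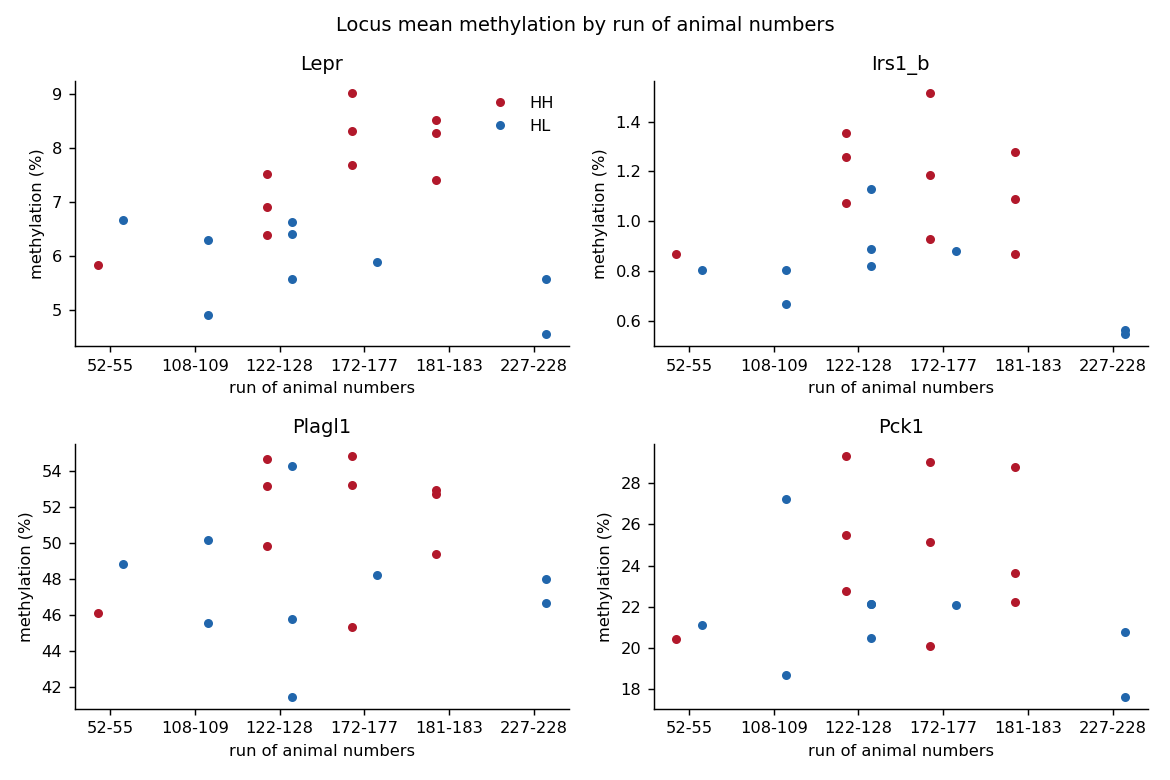
Methylation (percent) of each HH and HL animal at Lepr, Irs1_b, Plagl1 and Pck1 against the run of animal numbers the animal belongs to. Each point is an animal; runs 108 to 109 and 227 to 228 hold HL animals only and run 181 to 183 HH animals only, and at Lepr the run 52 to 55 has its HH animal below its HL animal.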

How the data were processed

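The authors sequenced barcoded amplicons of bisulfite-converted liver DNA, called methylation with Bismark (version not given in the sources used here) against mm9, which the submitters' processing notes name, and deposited the read counts per CpG and animal, methylated and total, with the methylated fraction. The deposited fraction equalled the ratio of the counts to within 5.7e-14 points over 11071 values, and 0 value columns were left unused. The smallest total above 0 was 100 reads.

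The counts were read as percent, 100 times methylated over all reads, for CpGs with at least 10 reads. A CpG was kept when more than 5 of 10 HH and more than 4 of 9 HL animals had a value, CpGs within 1000 bp formed a locus, and a locus value was the mean over its CpGs. The submitters' build equals NCBIM37, where all 300 positions were CpG cytosines, and genes came from GENCODE M1. For Lepr, neither sequence nor position is given. The exact permutation test ran over all 92378 splits with p as double the smaller tail. It took the place of the study's Student's t-test because HL had 9 animals. The study also used a Wilcoxon rank test. After adjustment its parametric test gave the same counts, 2 loci and 0 CpGs.

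The members and gene lists were chosen with earlier results of these data known. Loci were described per animal when their unadjusted p was under 0.05, when they were among the 3 largest differences, or when imprinted, together with their CpG of smallest p and of largest difference. Alternatives covered the test, depth minimum, missing values, locus value, runs of animal numbers and leaving out each animal. Tests were checked on simulated data. Software was limma 3.58.1 in R 4.3.3, and Python 3.11.15 with scipy 1.17.1, numpy 2.4.6 and pandas 2.3.3.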

Additional observations from a re-analysis of the deposited data

Results flagged for a closer look

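In 6 of 44 sets of values a single animal stood apart from its group by Dixon's criterion, which chance alone meets in about 1 of 20 sets. The sets were the locus means and the median depths of each group. Ebp was at 20.8% in HH replicate 1, with the next animal at 1.03%. Pck1 was at 27.2% in HL replicate 4, with the next at 22.1%. Nr1i2 was at 93.1% in the same animal, HL replicate 4, with the next at 94.0%. Pck2 was at 0.478% in HH replicate 7 against 0.677% for the next. Nr1h3 was at 2.78% in HH replicate 5 against 1.896%, only just past the criterion. Nr1h2 was at 1.05% in HL replicate 8 against 0.771%.

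Some CpGs outside the comparison also carried methylated reads. Igf2 averaged 3.43% ± 0.575 (SD, n = 5) in HH and 3.67% ± 0.587 (SD, n = 5) in HL over 11 CpGs, with animals between 2.61 and 4.62% and no separation of the groups. At Rxra 3 further CpGs averaged 1.23% in 6 HH animals and 0.623% in 4 HL animals. At Nr1h3 a further CpG averaged 1.36% in 5 HL animals and was at 0 in 2 HH animals. The isolated CpG near 6030445D17Rik was at 9.43% on average in 2 HH animals, at a depth of 106 reads, and at 20% in 1 HL animal, at 100 reads.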

How the results depend on the processing

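The number of loci past the adjusted threshold, 2, was 1 of 16 under a minimum of 1000 reads, 1 of 19 with a value in at least 36 animals and 1 of 10 with CpGs of 2 to 98% only, 3 settings in which Irs1_b was not among the loci tested. It was also 1 with CpGs read in every HH and HL animal (of 19), animals of at least 500 reads at the locus (of 20), pooled reads as deposited, subtraction of the other low loci, and limma on the log2 ratio (each of 21). Too few animals reached 500 reads at Irs1_b for that locus to pass. Pooled reads with the even counts halved gave 2 of 21 loci. The number was 0 under both run blocks (gap of 3 or 10) and the quasi-binomial model, and 2 to 3 when each animal was left out. In the run blocks the smallest possible p was 0.0125 (gap 3) and 0.00714 (gap 10) at most loci, too large for 1 locus alone to pass. Loci at an unadjusted p under 0.05, 4, were 2 with a minimum of 1000 reads (of 16), with animals of at least 500 reads (of 20) and by the quasi-binomial model, 1 under both run blocks, and 2 to 4 without each animal in turn, the lowest without HH replicate 2, HH replicate 5 or HL replicate 9. Of single CpGs, limma on the log2 ratio passed 3, and leaving out an animal gave 0 to 1 (Lepr_7, without HH replicate 1). CpGs at an unadjusted p under 0.05, 36 of 282, were 17 of 210 with a minimum of 1000 reads, 4 and 8 under the run blocks of gap 3 and 10, 23 by the quasi-binomial model, and 24 to 41 without each animal. The interaction gave 0 to 2 loci at an unadjusted p under 0.05 without each animal.

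The difference at Lepr was 0.920 and 0.936 points under the run blocks (adjusted p 0.804 and 0.600) and 0.229 log odds by the quasi-binomial model (adjusted p 0.0832). Over all its alternatives the adjusted p ranged from 0.00346 to 0.804. At Irs1_b, where it ranged from 0.00576 to 0.787, the call ended with pooled reads as deposited (0.312 points), subtraction of the other low loci (0.336), CpGs read in every animal (0.215) and the run blocks (0.256 and 0.239), and on the log scales of limma (0.338) and the quasi-binomial model (0.221). It also ended with animals of at least 500 reads (0.163), too few for a pass. With pooled reads and the even counts halved the Irs1_b call held.

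Small differences changed sign in 14 of 777 values over 21 loci. These were Insig2 (-0.0144) and Pparg (-0.122) by limma on the log2 ratio; Srebf1 (-0.0281), Pck2 (-0.0218) and Srebf2 (-0.0251) after subtracting the other low loci; Pck2 (-0.0423) by the quasi-binomial model; Rxra (-0.0183) under the run block of gap 10; Nr1h3 (0.00597) with at least 36 animals; and Nfkb1 (0.0266 and 0.0293) under the run blocks. Leaving out animals gave -0.0451 to 0.564 points at Irs1_a, -0.208 to 0.00137 at Nr1h3, -0.0178 to 0.00896 at Nfkb1, -0.105 to 2.14 for the interaction at Ebp, and -0.0790 to 0.000345 for log10 depth. The cause was not tested. No paired analysis was possible because the replicate numbers follow accession order and pair no animals. Median depth was under 1000 reads in at least 1 group at Irs1_b, Plagl1, Rxra, Nr1h3 and Pparg, and with halved counts the variance over animals was 0.918 to 3.4995 times the binomial there.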

Other observations

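The methylated read count was even in every HH and HL animal at 154 of the 282 CpGs. In 19 loci such CpGs stood beside others, and in 16 of these the reads at the even CpGs were between 1.9 and 2.1 times those of their neighbours (median 2.00). Halving both counts leaves the percentage at a CpG as it is. Depths, read minimums, counting intervals, pooled locus values and the models of the reads rest on the counts. The cause was not tested.

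Low loci had more CpGs between their primers than the others, with a median of 6.88 per 100 bp (4.10 to 11.1 over 12 loci) against 4.56 (1.49 to 6.80 over 8 loci). This is a description of the loci with a located primer pair.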
